A study of Mus musculus with 6 samples.

Results

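The retinoblastoma family (*Rb1*, *Rbl1* and *Rbl2*) and the E2F transcription factor genes *E2f1* to *E2f7* were examined in slow-cycling and faster-cycling chondrocytes of the mouse growth plate. These 10 genes were chosen by name from the 23159 genes of the count table, and all 10 passed the filter on low counts that left 13728 genes for testing. The study compared label-retaining chondrocytes (LRCs) with non-LRCs in 3 independent experiments, each giving 1 library of either kind, so that the 6 libraries formed 3 pairs. All mice carried 4 homozygous alleles: Peli2(Col2a1-tTA), Col1a1(TRE-H2B-GFP), Col2a1-creER and R26R(tdTomato). They were 49 days old, had been fed doxycycline from P21 to P49, and had received tamoxifen at P46 and P47. With this Tet-Off system doxycycline stops synthesis of the nuclear label H2B-GFP, which dividing cells then dilute. The *Col2a1* promoter drove tTA, although the study also saw weak H2B-EGFP in osteoblasts and osteocytes of mice that lacked this driver, and cells of several littermates were pooled in each experiment. LRCs were H2B-GFP(high) cells and non-LRCs H2B-GFP(mid-low) cells, sorted as tdTomato+ according to the labels and as CD45-negative according to the methods. About 10000 LRCs and 50000 non-LRCs went into each library.

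The pocket proteins pRB, p107 and p130, encoded by *Rb1*, *Rbl1* and *Rbl2*, bind E2F factors and hold back genes for DNA replication and mitosis until cyclin-dependent kinases phosphorylate them. E2F1, E2F2 and E2F3 are known mainly as activators, E2F4 and E2F5 as partners of p107 and p130 in repression, E2F6 as a repressor that acts without pocket proteins through polycomb complexes, and E2F7 as a repressor that binds DNA without a DP partner. In resting cells p130 is the usual pocket protein of the DREAM complex, in which E2F4 or E2F5, a DP protein and the MuvB core sit on cell cycle promoters.

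Total counts per library were between 18943789 and 129559872, and the smallest was the LRC library of experiment 2. It had no count for 1731 of the genes tested and held the lowest CPM of all 6 libraries for 35.8% of them, more than any other library. Among the 10 genes it held the lowest value of 4, namely *Rb1*, *Rbl1*, *E2f1* and *E2f7*. Levels are given as CPM, counts per 1000000 counts after TMM scaling. Of 13 growth plate chondrocyte markers in the table, 12 were fitted lower in LRCs and none was called, and their summed level was 95705 to 247607 CPM in LRCs and 156287 to 266365 CPM in non-LRCs. *Col2a1* was at 63389 to 189468 CPM over the 6 libraries and *Matn1*, the lowest of the list, at 6.16 to 57.6 CPM. *Sox9* was higher in LRCs in each pair, at 2279, 1444 and 2341 CPM against 1412, 1436 and 1451 CPM in non-LRCs. Of 9 markers of superficial articular and synovial cells, 8 were fitted higher in LRCs and 4 were called. Their summed level was 641 to 2312 CPM in LRCs against 180 to 224 CPM in non-LRCs. *Prg4* made up 109 to 1017 CPM of this sum in LRCs and 3.22 to 29.5 CPM in non-LRCs. Of 8 markers of hypertrophic chondrocytes, 7 were fitted lower in LRCs, 1 was fitted higher and 2 were called. The sum of all 8 was 972 to 2130 CPM in LRCs and 1152 to 2906 CPM in non-LRCs. *Spp1* made up 398 to 1727 CPM of it in LRCs and 416 to 1682 CPM in non-LRCs. *Panx3*, of the same list, was at 6.78 to 60.1 CPM in LRCs and 176 to 494 CPM in non-LRCs, without overlap. *Vegfa* went the other way, at 173 to 189 CPM in LRCs and 123 to 170 CPM in non-LRCs, also without overlap. Markers of endothelial and erythroid cells summed to at most 3.63 CPM in any library, with *Cdh5*, *Kdr*, *Hba-a1* and *Hba-a2* at 0 counts throughout. Leukocyte markers summed to 6.57 to 10.4 CPM in LRCs and 3.78 to 4.95 CPM in non-LRCs, with *Ptprc* at 0 counts in 5 of the 6 libraries. Skeletal muscle markers summed to 12.6 to 26.6 CPM in LRCs and 24.6 to 43.8 CPM in non-LRCs, and osteoblast and osteocyte markers to 1395 to 3151 CPM and 1239 to 2133 CPM, most of it *Col1a2*. Of 7 osteoblast and osteocyte markers tested, 3 were fitted higher and 4 lower in LRCs, and 1 was called. *Col1a1* was at 154, 52.9 and 113 CPM in LRCs and 33.7, 8.19 and 23.3 CPM in non-LRCs. *Bglap* went the other way in each pair, at 7.83, 36.1 and 2.75 CPM in LRCs and 13.3, 66.2 and 9.72 CPM in non-LRCs.

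Whether the factors that gate entry into S phase differed between the cells was asked first. *Rbl2* was the member that stood farthest from its replicate error, with a 2.16-fold higher fitted level in LRCs. The activators *E2f1* and *E2f2* were lower in LRCs in all 3 experiments, and *E2f3*, *E2f5* and *E2f6* were higher in all 3, but none of these differences passed the adjusted test. In edgeR's quasi-likelihood test with the experiment as a block, none of the 10 genes had a Benjamini-Hochberg adjusted p below 0.05, and 1.28% of all genes tested were called. Without adjustment, 1 of the 10 had p below 0.05, in the direction of higher in LRCs, where 8.89% of all genes tested had it, and none in the other direction, where 9.53% had it. Of the 10 genes, 4 were higher in LRCs in all 3 experiments (20.4% of all genes tested), 2 were lower in all 3 (26.1%) and 4 were mixed. In 2 of the 10, every LRC library lay above every non-LRC library (8.41% of all genes tested), and in none did every LRC library lie below (10.3%). The median log2 fold change of the 10 genes was -0.0027, and that of all genes tested -0.097. A count of 0 in 10 is near the background of 1.28%. In bulk libraries, fewer cells expressing a gene and less RNA per cell cannot be told apart.

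**Figure D1:**
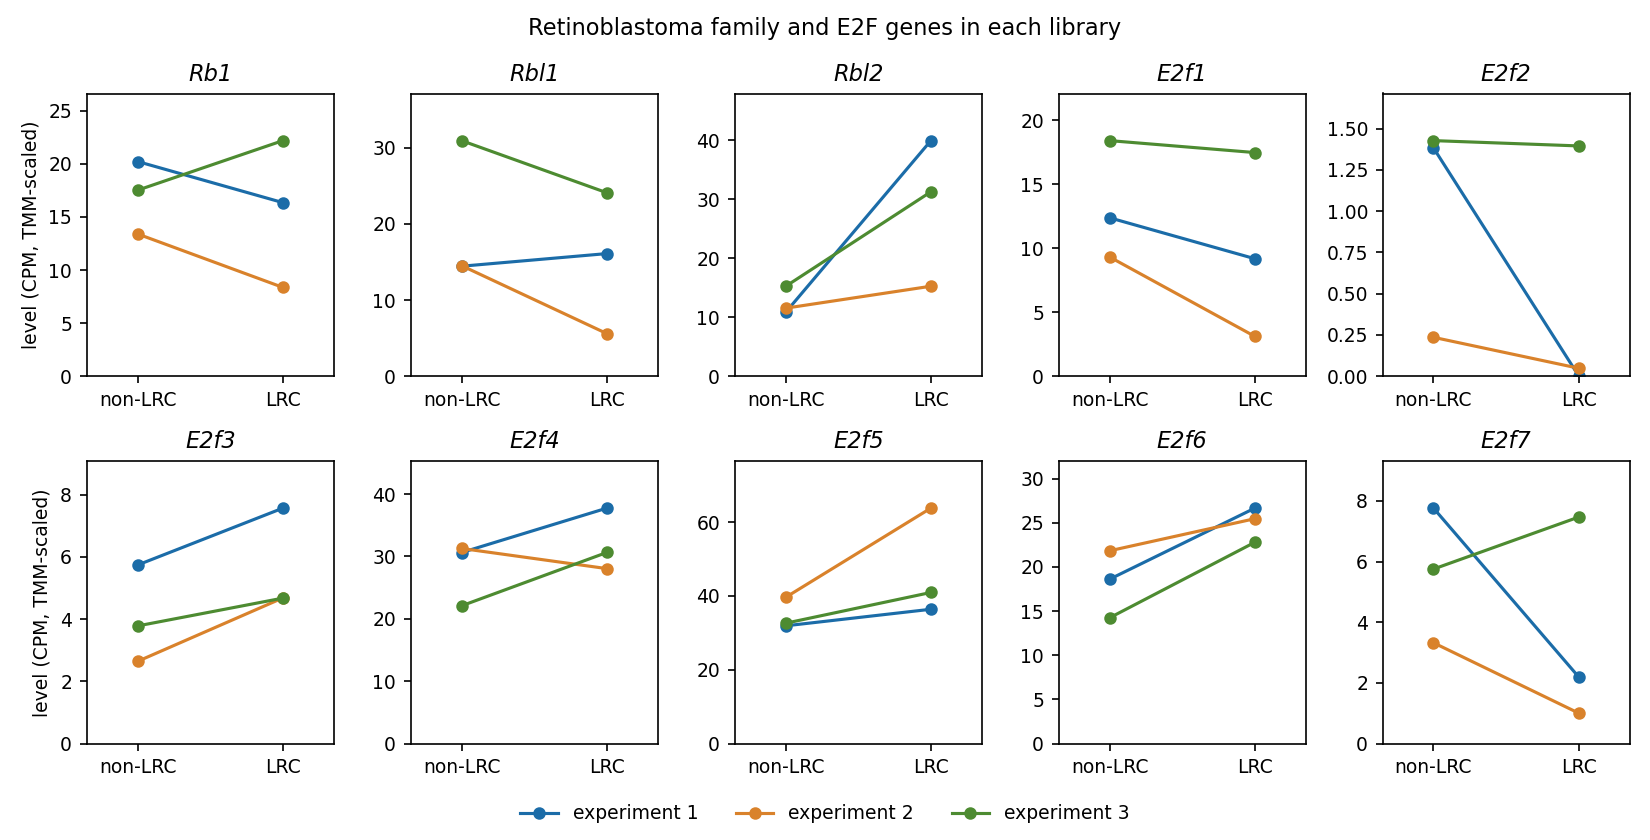
Level of each gene in CPM after TMM scaling (vertical axes, each from 0) in the non-LRC and LRC libraries, with lines joining the libraries of 1 experiment. *Rbl2* is higher at the LRC end of all 3 lines, by most in experiment 1 (10.8 and 39.9 CPM), while *E2f4*, *Rb1*, *Rbl1* and *E2f7* have lines in both directions.

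*Rbl2* encodes p130, the pocket protein most abundant in resting cells, and lies at chr8:91070057-91123844 on the plus strand (GRCm38). It measured 39.9, 15.2 and 31.2 CPM in LRCs of experiments 1, 2 and 3, and 10.8, 11.5 and 15.2 CPM in non-LRCs. Every LRC library lay above every non-LRC library, but the lowest LRC value, 15.242 CPM in experiment 2, exceeded the highest non-LRC value, 15.207 CPM in experiment 3, by almost nothing. Behind these values stood 4663, 319 and 1343 counts for LRCs and 1115, 440 and 756 for non-LRCs. Within experiments the log2 difference was 1.88, 0.40 and 1.04, so that experiment 1 gave the widest gap and experiment 2 the narrowest. The fitted log2 fold change was 1.11 ± 0.33 (SE, n = 3 pairs), a 2.16-fold higher level, with a 95% interval of 0.30 to 1.93. edgeR gave an unadjusted p of 0.0155 and an adjusted p of 0.160.

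The call for *Rbl2* depended on the test and on experiment 2. DESeq2 with the same block, the model of the study's methods, gave an adjusted p of 0.0197 and called 12.3% of the genes it tested. limma-voom with the block gave 0.0101 and called 9.91%, and edgeR's likelihood ratio test gave 0.0419 and called 9.4%. Without experiment 2 the edgeR quasi-likelihood fit gave a log2 fold change of 1.47 and an adjusted p of 0.0304, at which 5.37% of the genes were called. Without experiment 1 the log2 fold change was 0.72 and the adjusted p 0.565. Over all 13 alternatives *Rbl2* stayed higher in LRCs, at log2 fold changes between 0.72 and 1.47 and adjusted p between 0.0101 and 0.565. The libraries in which *Rbl2* was high were also those with much superficial articular marker RNA, whose sum was 2312, 641 and 2211 CPM in LRCs of experiments 1, 2 and 3; the part of such cells in the result was not tested. *Aktip* overlaps *Rbl2* on the opposite strand, and was at 22.2, 21.7 and 24.5 CPM in LRCs and 13.7, 29.4 and 26.5 CPM in non-LRCs. It was higher in LRCs of experiment 1, as *Rbl2* was, and lower in those of experiments 2 and 3. Whether reads of *Aktip* had a part in the *Rbl2* counts was not tested.

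The gene's upstream sequence is shown because *Rbl2* had the largest difference relative to its error among the 10 genes. RefSeq promoter windows (GRCm38.p6) of 250 bases before to 50 bases after a start site were found for 7 of the 10 genes, and not for *Rb1*, *E2f4* and *E2f5*. They were searched on both strands for a CHR element, TTTGAA or TTCGAA, to which the MuvB core binds, for a CCAAT box, and for the E2F letters TTTCCCGC, TTTCGCGC, TTTGCCGC and TTTGGCGC. The 250 bases before the *Rbl2* start site, chr8:91069807-91070056 on the plus strand, read as follows, with the CHR letters in capitals.
Rbl2: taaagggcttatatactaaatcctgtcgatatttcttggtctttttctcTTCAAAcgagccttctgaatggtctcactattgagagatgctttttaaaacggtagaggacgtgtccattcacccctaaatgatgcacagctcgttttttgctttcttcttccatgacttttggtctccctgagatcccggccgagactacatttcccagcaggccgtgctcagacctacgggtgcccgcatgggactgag
The CHR letters stand on the opposite strand with their first base at -201, and 19.2% of all 32851 RefSeq windows held such letters. The stretch has a GC content of 46.8% with 10 CpG pairs. No E2F letters and no CCAAT box were found in the *Rbl2* window, which says only that these letters are not there.

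Neither of the other pocket protein genes was higher in LRCs in every experiment, and both had 95% intervals that included 0. *Rb1*, the founding member of the family (chr14:73183673-73325822, minus strand), was at 16.4, 8.36 and 22.2 CPM in LRCs and 20.2, 13.4 and 17.5 CPM in non-LRCs of experiments 1, 2 and 3. The groups overlapped fully, and the LRC library was the lower of the pair in experiments 1 and 2 and the higher in experiment 3. Its log2 fold change was -0.21 ± 0.29 with an adjusted p of 0.740 by edgeR, a 95% interval of -0.92 to 0.49, and a sign that turned without experiment 2 (0.015). *Lpar6* (16 to 86 counts per library) and *Rcbtb2* (262 to 2520) overlap *Rb1* on the opposite strand, and since the strand setting of the counting is not given, reads of such neighbours may be shared. *Rbl1* encodes p107, whose gene is itself an E2F target (chr2:157145893-157204534, minus strand). It was at 16.1, 5.59 and 24.1 CPM in LRCs and 14.4, 14.5 and 30.96 CPM in non-LRCs. The log2 difference was 0.16 in experiment 1, with LRCs the higher, and LRCs were lower in the others. The fitted log2 fold change of *Rbl1* was -0.51 ± 0.35, with a 95% interval of -1.36 to 0.34 and an adjusted p of 0.491 by edgeR.

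Levels of different genes were compared only per length, as counts per kilobase of annotated exon per 1000000 TMM-scaled counts (RPKM). On this scale the level of *Rbl2* was 3.81 ± 1.66 RPKM (SD, n = 3) in LRCs and 1.65 ± 0.313 RPKM in non-LRCs, that of *Rb1* 2.60 ± 1.15 and 2.83 ± 0.571 RPKM, and that of *Rbl1* 2.55 ± 1.55 and 3.33 ± 1.59 RPKM. *Rbl2* made up 49.4, 46.5 and 34.9% of the summed pocket protein level in LRCs of experiments 1, 2 and 3, against 19.8, 24.7 and 19.9% in non-LRCs. The shares of the groups did not overlap, and the mean was 43.6% ± 7.67 (SD, n = 3) in LRCs and 21.5% ± 2.77 in non-LRCs. *Rbl1* took 25.2, 21.5 and 34.0% in LRCs and 33.5, 39.2 and 51.2% in non-LRCs, lower in LRCs in each experiment. *Rb1* took 25.4, 32.0 and 31.1% in LRCs and 46.7, 36.1 and 28.9% in non-LRCs, lower in LRCs in experiments 1 and 2 only. The ratio of the *Rbl2* level to the *Rbl1* level was 1.96, 2.16 and 1.03 in LRCs and 0.592, 0.629 and 0.390 in non-LRCs, and that of *Rbl2* to *Rb1* was 1.94, 1.45 and 1.12 against 0.425, 0.684 and 0.691. Thus the transcript of p130 was the most abundant of the 3 per length in every LRC library and the least abundant in every non-LRC library. These shares come from the same libraries as the *Rbl2* difference and are a description of it. The summed pocket protein level was 8.96 ± 4.04 RPKM (SD, n = 3) in LRCs and 7.82 ± 2.03 RPKM in non-LRCs. By experiment it was 10.7, 4.34 and 11.8 RPKM in LRCs and 7.20, 6.18 and 10.1 RPKM in non-LRCs. LRCs were thus higher in experiments 1 and 3 and lower in experiment 2. With the length of the longest transcript in place of all exons, *Rbl2* took 39.5 to 54.3% in LRCs and 23.0 to 28.5% in non-LRCs.

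**Figure D2:**
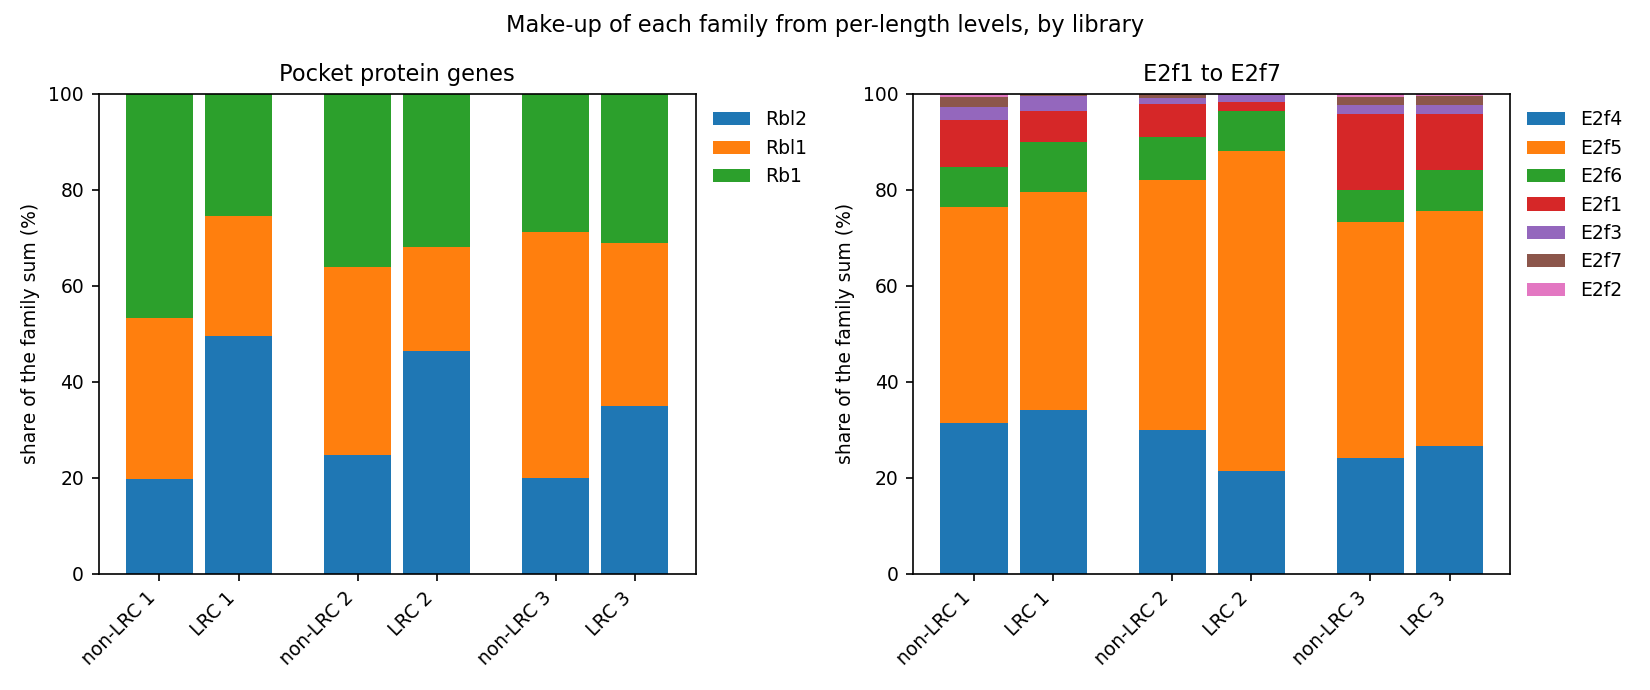
Share of each gene in the summed per-length level of its family (vertical axes, %) in each library, pocket protein genes at left and *E2f1* to *E2f7* at right, with pairs of bars for experiments 1 to 3. The *Rbl2* segment is 34.9 to 49.4% in LRCs and 19.8 to 24.7% in non-LRCs, whereas *E2f4* and *E2f5* together fill 73.2 to 88.0% of every E2F bar.

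Of the activator E2Fs, *E2f1* (chr2:154559407-154569892, minus strand) was at 9.18, 3.11 and 17.5 CPM in LRCs and 12.4, 9.32 and 18.4 CPM in non-LRCs. LRCs were lower in each pair, but experiment 3 differed by only 0.075 on the log2 scale, and the experiments lay farther apart than the groups. The log2 fold change of *E2f1* was -0.68 ± 0.38, with a 95% interval of -1.61 to 0.26 and an adjusted p of 0.409 by edgeR. *E2f2* (chr4:136172394-136196057, plus strand) was barely detected, its counts in experiments 1, 2 and 3 being 0, 1 and 60 for LRCs against 143, 9 and 71 for non-LRCs. In experiment 1 the non-LRC level of 1.38 CPM was at least 53.9-fold higher than the 0.0257 CPM that 3 counts would give in the LRC library, the limit that a count of 0 allows. In experiment 2 the LRC level was 0.203 times the non-LRC level, with an exact binomial 95% interval of 0.0046 to 1.46, and in experiment 3 the levels were 1.396 and 1.428 CPM. Such intervals and limits cover counting error only. *E2f2* was thus far lower in LRCs of experiment 1 and nearly equal in experiment 3. Its log2 fold change of -2.91 ± 2.31 depends on the prior count where a library has none, and its adjusted p was 0.560 by edgeR.

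*E2f3* (chr13:29906575-29986063, minus strand), an activator too, went the other way. It was at 7.57, 4.68 and 4.68 CPM in LRCs and 5.74, 2.64 and 3.78 CPM in non-LRCs, higher in LRCs in each pair with overlapping groups. The log2 fold change of *E2f3* was 0.51 ± 0.44, with a 95% interval of -0.56 to 1.57 and an adjusted p of 0.591 by edgeR. Per length, *E2f1*, *E2f2* and *E2f3* together made up 9.55, 3.46 and 14.2% of the E2F sum in LRCs and 13.2, 8.17 and 18.3% in non-LRCs. The combined share was lower in LRCs in each experiment, while the groups overlapped.

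The repressor E2Fs that pair with p107 and p130 were the most abundant. *E2f4* (chr8:105297663-105305370, plus strand) was at 37.7, 28.0 and 30.6 CPM in LRCs and 30.6, 31.3 and 22.1 CPM in non-LRCs. It was higher in LRCs in experiments 1 and 3 and lower in experiment 2, and its log2 fold change of 0.21 ± 0.21 had a 95% interval of -0.31 to 0.73 and an adjusted p of 0.656 by edgeR. *E2f5* (chr3:14578641-14606309, plus strand) was at 36.4, 63.8 and 40.9 CPM in LRCs and 31.9, 39.6 and 32.6 CPM in non-LRCs. LRCs were higher in each pair, most of all in experiment 2, where the smallest library gave the highest value. The log2 fold change of *E2f5* was 0.40 ± 0.19 (95% interval -0.055 to 0.86), with an unadjusted p of 0.0748 and an adjusted p of 0.325 by edgeR. *1810022K09Rik* overlaps *E2f5* on the opposite strand and had 921 to 3553 counts per library.

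*E2f6* (chr12:16810963-16839742, plus strand) was at 26.7, 25.5 and 22.8 CPM in LRCs and 18.6, 21.8 and 14.2 CPM in non-LRCs. All LRC libraries lay above all non-LRC libraries, and the LRC values were close together, at 24.98 ± 1.98 CPM (SD, n = 3) against 18.2 ± 3.81 CPM. The log2 fold change of *E2f6* was 0.47 ± 0.22 (95% interval -0.063 to 1.01), with an unadjusted p of 0.0743 and an adjusted p of 0.324 by edgeR. Its difference was thus smaller than that of *Rbl2*, and lay between 0.39 and 0.60 in all 13 alternatives, with adjusted p between 0.123 and 0.791. *E2f3*, *E2f4* and *E2f5* also kept log2 fold changes above 0 in all 13. *E2f7* (chr10:110745439-110787384, plus strand), an atypical E2F that is itself induced in S phase, was at 2.19, 1.003 and 7.47 CPM in LRCs and 7.76, 3.32 and 5.75 CPM in non-LRCs. LRCs were lower by more than 1 log2 unit in experiments 1 and 2 and higher in experiment 3. The log2 fold change of *E2f7* was -1.07 ± 0.64, with a 95% interval of -2.64 to 0.50 and an adjusted p of 0.433 by edgeR.

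**Figure D3:**
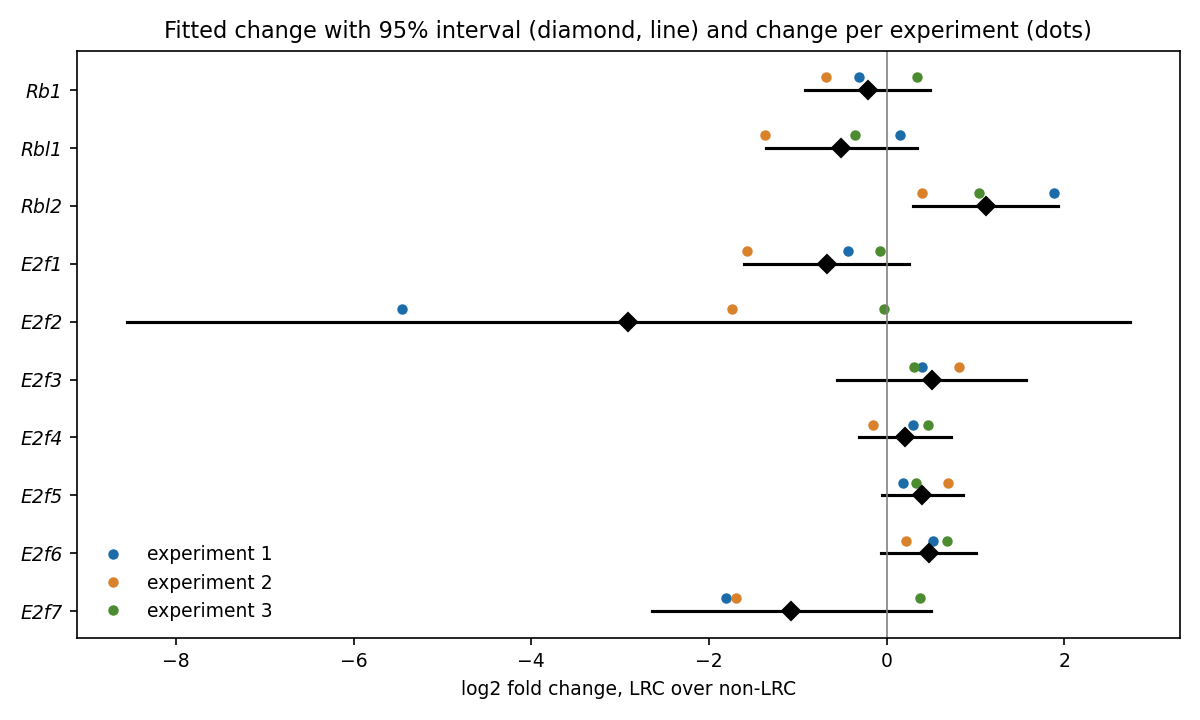
Fitted log2 fold change of each gene, LRC over non-LRC (horizontal axis), with its 95% interval from the edgeR fit (black), and the log2 CPM difference in each experiment (coloured dots, prior count 2). Only the interval of *Rbl2*, from 0.30 to 1.93, leaves out 0, and that of *E2f2*, which had 0 and 1 counts in a pair of LRC libraries, is the widest.

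Several of these genes are themselves targets of E2F, and 4 of the 9 RefSeq windows of 7 of them held E2F letters, against 2.26% of all 32851 windows. Their neighbourhoods of 30 bases are given in the gene's own direction, with the E2F letters in capitals.
Rbl1: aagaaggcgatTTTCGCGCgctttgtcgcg
E2f2: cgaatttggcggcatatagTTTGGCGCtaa
E2f3: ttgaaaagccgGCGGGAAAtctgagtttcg
E2f7: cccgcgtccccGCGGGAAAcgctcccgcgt
The letters began at -18 in *Rbl1* (chr2:157204534-157204563, minus strand) and at 39 in *E2f2* (chr4:136172294-136172323, plus strand), counted from the RefSeq start site. In *E2f3* (chr13:29986056-29986085, minus strand) and *E2f7* (chr10:110745230-110745259, plus strand) they stood on the opposite strand, with the first base at -11 and -198. No such letters were found in the windows of *Rbl2*, *E2f1* and *E2f6*. Of the genes with E2F letters, *Rbl1*, *E2f2* and *E2f7* had log2 fold changes below 0 and *E2f3* one above 0, none of them called. A CCAAT box stood in the windows of *E2f2*, *E2f3* and *E2f7* (37.4% of all windows), and CHR letters in those of *E2f2*, *E2f3* and *Rbl2*. These letters are a description, not evidence of binding.

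Ordered by mean per-length level, the E2Fs in LRCs ran *E2f5* (26.4 ± 8.24 RPKM, SD, n = 3), *E2f4* (13.1 ± 2.05), *E2f6* (4.41 ± 0.349), *E2f1* (3.14 ± 2.29), *E2f3* (1.04 ± 0.307), *E2f7* (0.395 ± 0.382) and *E2f2* (0.0986 ± 0.162). In non-LRCs the order was *E2f5* (19.5 ± 2.39 RPKM), *E2f4* (11.4 ± 2.09), *E2f1* (4.24 ± 1.47), *E2f6* (3.22 ± 0.673), *E2f3* (0.747 ± 0.288), *E2f7* (0.623 ± 0.247) and *E2f2* (0.208 ± 0.138). *E2f5* exceeded *E2f4*, and *E2f4* exceeded every lower member, in each of the 6 libraries. *E2f6* and *E2f1* overlapped in both groups, *E2f1* and *E2f3* as well as *E2f7* and *E2f2* overlapped in LRCs, and *E2f3* and *E2f7* in non-LRCs. The order below *E2f4* depended on the length used. With the length of the longest transcript, the order of the means in LRCs was unchanged, but *E2f6* and *E2f1* no longer overlapped there. In non-LRCs *E2f6* (mean 6.04 RPKM) then stood above *E2f1* (4.85), and *E2f7* (1.03) above *E2f3* (0.796). *E2f4* and *E2f5* together made up 79.5, 88.0 and 75.5% of the E2F sum in LRCs and 76.4, 81.9 and 73.2% in non-LRCs, higher in LRCs in each experiment by a few points. *E2f6* held 8.37 to 10.4% in LRCs and 6.75 to 9.03% in non-LRCs. With the longest transcript length its mean share was larger, at 14.7% in LRCs and 12.9% in non-LRCs. The whole E2F sum was 45.1, 53.7 and 47.0 RPKM in LRCs and 39.8, 42.7 and 37.3 RPKM in non-LRCs, without overlap. Without TMM scaling the groups overlapped, since the sum was 40.6 RPKM in LRCs of experiment 1 and 43.6 RPKM in non-LRCs of experiment 2.

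The 3 genes whose log2 CPM followed *Rbl2* most closely across the 6 libraries were *Nbea* (Pearson r = 0.998), *Adssl1* (r = 0.989) and *Ccpg1* (r = 0.981). They were picked as the highest of all genes tested, and the libraries share the group and depth differences, so these values are only a description. *Nbea* was at 6.11, 1.72 and 4.30 CPM in LRCs and 1.18, 1.31 and 1.91 CPM in non-LRCs, with an adjusted p of 0.374 by edgeR.

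Genes that work with or downstream of the family were counted in lists, each with the same edgeR fit. The lists were chosen with earlier results of these data known, so their directions are a description. In each list the genes named are the 4 tested genes of smallest unadjusted p, or all where fewer were tested. That they move alike in the 3 pairs or do not overlap follows in part from this choice. *E2f8* and the partners of the complex came first: of 12 genes for DP proteins, E2F8, the MuvB core, its B-MYB and FOXM1 partners and the DREAM kinase, 4 were fitted higher and 8 lower in LRCs, and none was called. *Lin54*, the MuvB subunit that contacts the CHR element, was at 29.4, 28.0 and 25.7 CPM in LRCs and 11.9, 8.09 and 22.3 CPM in non-LRCs, without overlap (log2 fold change 1.098 ± 0.352, adjusted p 0.182). *Mybl2*, whose product replaces the pocket protein on MuvB in cycling cells, was at 5.44, 1.77 and 13.8 CPM in LRCs and 12.7, 7.54 and 21.6 CPM in non-LRCs, lower in each pair (-1.30 ± 0.38, adjusted p 0.155). *E2f8*, the closest relative of *E2f7*, was at 9.87, 3.97 and 23.6 CPM in LRCs and 25.9, 19.8 and 22.0 CPM in non-LRCs, lower in LRCs of experiments 1 and 2 and not of experiment 3, as was *E2f7* (-1.19 ± 0.49, adjusted p 0.271). *Rbbp4* had a log2 fold change of -0.40 ± 0.18 (adjusted p 0.310).

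The kinases that phosphorylate pocket proteins and their cyclins held the 1 list gene called in the edgeR quasi-likelihood fit with the block. Between 0 and 4 genes of this list were called in the alternatives, 4 of them with limma-voom, which called 9.91% of all genes tested. *Ccnd2*, encoding cyclin D2, was at 38.0, 62.8 and 31.3 CPM in LRCs and 10.9, 12.9 and 4.02 CPM in non-LRCs. All LRC libraries lay well above all non-LRC libraries, and the log2 fold change was 2.34 ± 0.29 with an adjusted p of 0.0331 by edgeR, which was 0.201 without the block. *Cdk4*, the kinase partner of D cyclins, was at 64.9, 72.6 and 86.4 CPM in LRCs and 122.95, 140 and 147 CPM in non-LRCs, also without overlap (log2 fold change -0.88 ± 0.14, adjusted p 0.0524). Thus the cyclin stood higher and its kinase lower in LRCs of every experiment. *Ccnd3* had a log2 fold change of 0.60 ± 0.22 (adjusted p 0.227) and *Ccna2*, encoding the S phase cyclin A2, one of -0.79 ± 0.19 (adjusted p 0.107). Of the 12 genes tested in this list, 3 were fitted higher and 9 lower in LRCs.

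Of 6 CDK inhibitor genes tested, of 7 listed, 2 were fitted higher and 4 lower, and none was called. The INK4 genes *Cdkn2b*, *Cdkn2c* and *Cdkn2d*, whose products block CDK4 and CDK6, had lower LRC levels in each experiment, at log2 fold changes of -1.17 ± 0.38, -0.74 ± 0.24 and -0.79 ± 0.29 and adjusted p of 0.187, 0.185 and 0.228. *Cdkn1c*, encoding p57, was at 254, 255 and 173 CPM in LRCs and 107, 134 and 218 CPM in non-LRCs, higher in experiments 1 and 2 only (0.62 ± 0.31, adjusted p 0.360).

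Among 17 corepressors that pocket proteins recruit, 7 were fitted higher and 10 lower in LRCs and none was called. *Hdac2* (-0.69 ± 0.19, adjusted p 0.145) and *Rbbp8* (-0.74 ± 0.24, adjusted p 0.188) were lower in each pair, and *Smarca2* (0.58 ± 0.17, adjusted p 0.160) and *Arid4b* (0.40 ± 0.15, adjusted p 0.229) higher in each. Of 15 polycomb partners of E2F6 and related genes, 7 were fitted higher and 8 lower, and none was called. DESeq2, limma-voom and the likelihood ratio test each called 2 of the 15, and 12.3%, 9.91% and 9.4% of all genes tested. *Bmi1*, a polycomb subunit, was at 37.5, 35.5 and 47.9 CPM in LRCs and 16.7, 21.9 and 31.3 CPM in non-LRCs, without overlap (0.82 ± 0.21, adjusted p 0.117). *Cbx3* (-1.37 ± 0.39, adjusted p 0.145) and *Epc1* (-0.71 ± 0.27, adjusted p 0.242) were lower in each pair, and *Wdr5* was at 0.36 ± 0.18 (adjusted p 0.348). Of 10 germline genes that E2F6 is known to keep silent, 2 had enough counts to be tested. *Stag3* had 31, 1 and 131 counts in LRCs and 0, 0 and 38 in non-LRCs (adjusted p 0.318), and *Hsf2bp* 65 to 286 counts per library (adjusted p 0.674).

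Most of the listed G1/S and G2/M targets of the family were fitted lower in LRCs. The groups were sorted by H2B-GFP, which dividing cells dilute, so lists of replication and mitosis genes are not independent of the sort. The study had already reported a number of S and G2/M regulators as enriched in non-LRCs. Activity of pocket proteins and E2Fs was not tested. Of 70 E2F targets of the G1/S transition, 56 were fitted lower and 14 higher, with a median log2 fold change of -0.51, and 37 (52.9%) were lower in all 3 experiments against 26.1% of all genes tested. Unadjusted p by edgeR was below 0.05 for 13 lower (9.53% of all genes tested) and 1 higher (8.89%), and none was called (1.28%). The summed level of the 70 genes was 1032, 1040 and 1704 CPM in LRCs and 1319, 1301 and 1934 CPM in non-LRCs of experiments 1, 2 and 3, lower in LRCs in each pair although experiment 3 stood above the others in both groups. *Rrm2*, a subunit of ribonucleotide reductase, was at 22.5, 29.2 and 84.6 CPM in LRCs and 55.8, 80.8 and 124 CPM in non-LRCs (-1.11 ± 0.22, adjusted p 0.0807). *Dut* (-0.86 ± 0.23, adjusted p 0.133) and the primase gene *Prim1* (-1.23 ± 0.34, adjusted p 0.138) were lower in each pair. The maintenance methyltransferase gene *Dnmt1* went against the list, at 98.1, 40.5 and 96.6 CPM in LRCs and 49.98, 21.6 and 57.6 CPM in non-LRCs, higher in each pair (0.88 ± 0.15, adjusted p 0.0612).

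Among 64 DREAM targets of G2 and mitosis, 59 were fitted lower and 5 higher, with a median log2 fold change of -0.81. In this list 44 genes (68.8%) were lower in all 3 experiments (26.1% of all genes tested), and none was higher in all 3 (20.4%). Unadjusted p by edgeR was below 0.05 for 18 genes, all of them lower (9.53% of all genes tested), and none was called (1.28%). Their summed level was 867, 775 and 1832 CPM in LRCs and 1310, 1285 and 2634 CPM in non-LRCs, lower in LRCs in each pair. *Hmgb2* was at 60.1, 128 and 111 CPM in LRCs and 141, 200 and 257 CPM in non-LRCs (-1.03 ± 0.17, adjusted p 0.0595). *Birc5*, encoding survivin, was at 9.03, 8.46 and 28.8 CPM in LRCs and 22.0, 23.6 and 45.7 CPM in non-LRCs (-1.14 ± 0.25, adjusted p 0.0911). *Cks2* (-1.21 ± 0.30, adjusted p 0.114) and *Ube2c* (-1.07 ± 0.26, adjusted p 0.115) were lower in each pair as well. Without experiment 2, whose LRC library was the smallest, 57 of the G1/S list and 62 of the G2/M list were fitted lower. Whether depth or the share of other cells had a part in these shifts was not tested.

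**Figure D4:**
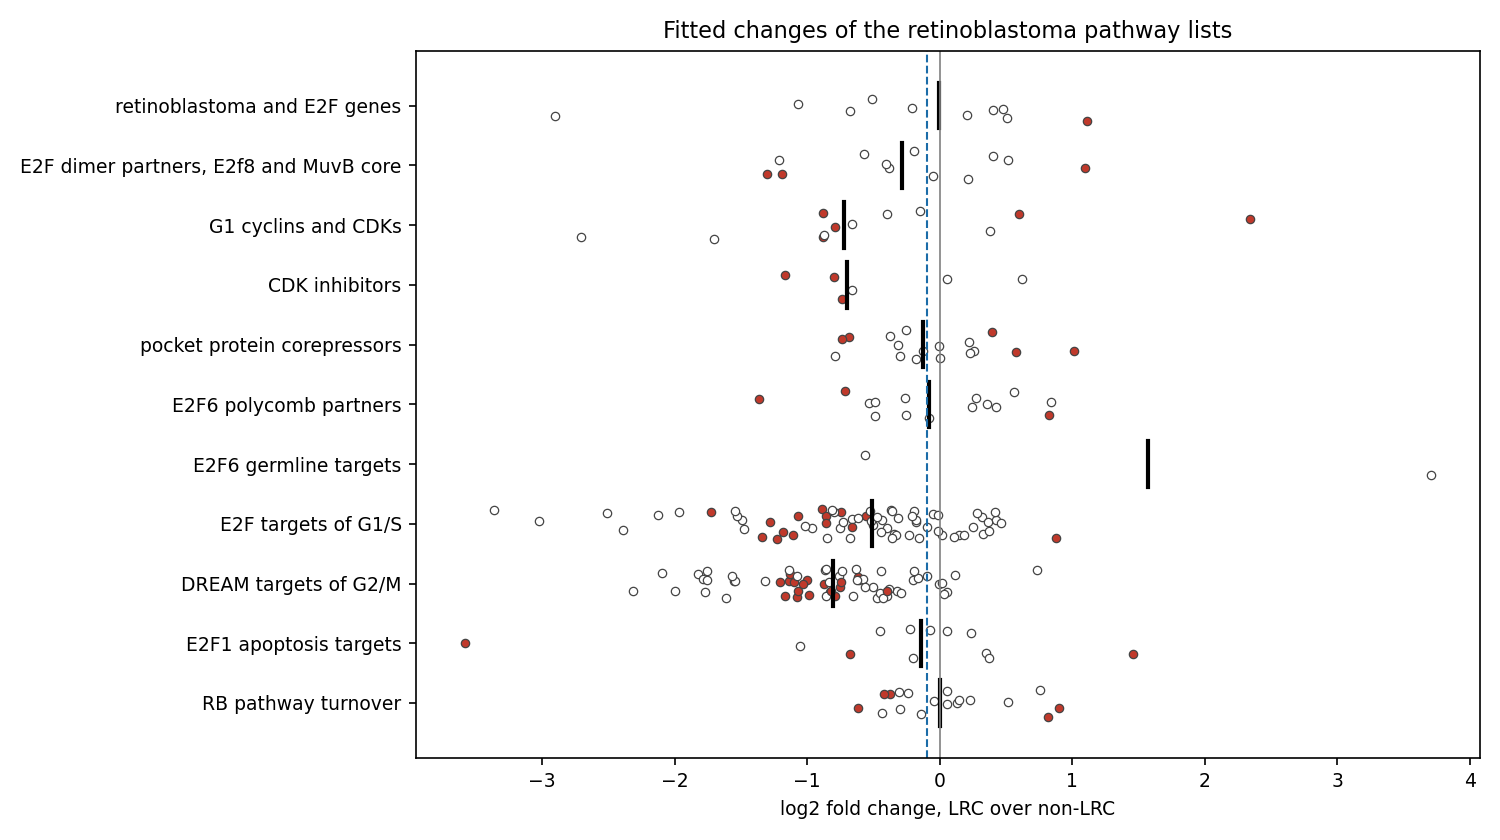
Fitted log2 fold change of every gene tested, LRC over non-LRC (horizontal axis), by list, with filled points for an unadjusted p below 0.05, black bars for list medians and a dashed line for the median of all genes tested at -0.097. The medians of the G1/S and G2/M targets lie at -0.51 and -0.81, whereas that of the 10 retinoblastoma and E2F genes lies at -0.0027.

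Of 12 apoptosis genes known as E2F1 targets or their partners, 5 were fitted higher and 7 lower and none was called. DESeq2, limma-voom and the likelihood ratio test each called 2 of the 12, and 12.3%, 9.91% and 9.4% of all genes tested. *Bcl2l11*, encoding the BH3-only protein BIM, was at 33.3, 43.2 and 27.7 CPM in LRCs and 12.6, 21.7 and 7.02 CPM in non-LRCs, without overlap (1.46 ± 0.26, adjusted p 0.0648). *Pmaip1*, encoding NOXA, was at 1.81, 0 and 2.16 CPM in LRCs and 7.54, 8.35 and 17.3 CPM in non-LRCs (-3.59 ± 1.13, adjusted p 0.178), and *Bbc3*, encoding PUMA, had a log2 fold change of -0.68 ± 0.22 (adjusted p 0.194). These BH3-only genes thus did not move one way. *Mcl1* was at 0.24 ± 0.16 (adjusted p 0.495). Of 18 genes for turnover and dephosphorylation of the pathway's proteins, 9 were fitted higher and 9 lower, and none was called. *Fzr1*, encoding the CDH1 activator of the anaphase-promoting complex, was at 27.2, 30.5 and 33.2 CPM in LRCs and 12.6, 14.5 and 23.3 CPM in non-LRCs, without overlap (0.90 ± 0.23, adjusted p 0.120). *Ppp2r3a*, encoding a regulatory subunit of the phosphatase PP2A, was higher in each pair too (0.82 ± 0.22, adjusted p 0.136), and *Cks1b* (-0.62 ± 0.20, adjusted p 0.184) and *Ppp1ca* (-0.42 ± 0.14, adjusted p 0.196) were lower in each. All adjusted p of list genes are from the edgeR quasi-likelihood fit over 13728 genes.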

How the data were processed

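The authors isolated total RNA, amplified complementary DNA, prepared Nextera XT libraries and sequenced single-end reads. Per the submitters' processing notes, reads were aligned to mm10 (GRCm38) with TopHat2 2.0.13 and Bowtie2 2.2.1, and HTSeq counted non-ambiguous reads per gene. The gene annotation and strand setting are not given in the sources used here. The authors deposited raw counts for 23159 genes, used here without change. Their tables of size-factor-normalized and rlog values were not used.

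Counts were fitted in R 4.3.3 with edgeR 4.0.16: TMM, filterByExpr (minimum count 10, minimum total 15), a block for the experiment as in the study's paired model, the quasi-likelihood test (prior count 0.125) and Benjamini-Hochberg adjustment over 13728 genes, with calls at an adjusted p below 0.05. The fit was run on simulated data that had the same dispersion for every gene and no experiment effect. That run could not check the block. Within-experiment differences are of log2 CPM with a prior count of 2. Libraries were paired by the experiment numbers of the labels. Deviations from the group means of same-numbered libraries correlated across genes at r = 0.197, 0.288 and 0.336. Those of most other pairings were below 0, but the LRC library of experiment 1 and the non-LRC library of experiment 3 gave 0.128. Deviations from a mean of 3 libraries sum to 0, so the values below 0 are not separate evidence for the pairing. Lengths and coordinates are from GENCODE vM21, promoters from RefSeq. Alternatives were other tests (DESeq2 1.42.0, limma 3.58.1), scalings, filters, prior count, depth and each experiment left out. Members and gene lists were chosen with earlier results of these data known. Beside the members, the 4 genes of smallest unadjusted p per list and the 3 most like *Rbl2* are named.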

Additional observations from a re-analysis of the deposited data

How the results depend on the processing

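The sign of 9 of the 10 genes stayed the same in every alternative that gave a value, and that of *Rb1* turned without experiment 2 (log2 fold change 0.015). Of the 10, no gene but *Rbl2* passed the threshold in any alternative. *Rbl2* was called with DESeq2 (12.3% of all genes tested), limma-voom (9.91%) and the likelihood ratio test (9.4%), where 1 in 10 is near those shares. It was also called without experiment 2 (5.37%). The log2 fold change of *Rbl2* was 1.12 with DESeq2, 1.37 with limma-voom and 1.11 with the likelihood ratio test, each past the threshold, and 0.72 to 1.47 when 1 experiment was left out. That of *Rb1* was -0.47 at the lowest and 0.015 at the highest. Leaving out 1 experiment gave 0 or 1 called genes of the 10. Over all genes, 176 were called in the paired edgeR fit, 1 without the replicate block, 1692 with DESeq2, 1361 with limma-voom, 1290 with the likelihood ratio test, 751 with at least 10 counts in every library, and 35 to 782 when 1 experiment was left out (782 without experiment 2). Without the block none of the 10 genes was called, and *Rbl2* had a log2 fold change of 1.21 with an adjusted p of 0.402. Calls in the G1/S and G2/M lists, 0 and 0 in the paired edgeR fit, were 11 and 12 with DESeq2, 5 and 9 with limma-voom, 4 and 10 with the likelihood ratio test, 2 and 4 with at least 10 counts in every library, 0 and 1 with no filter on low counts, 3 and 2 without experiment 2, and 1 and 0 without experiment 3. *E2f2* could not be fitted with at least 10 counts in every library. Of G1 cyclins and CDKs, 1 was called in the paired edgeR fit, 0 without the block, 3 with DESeq2, 4 with limma-voom, 3 with the likelihood ratio test and 1 or 2 otherwise. With DESeq2, limma-voom and the likelihood ratio test, calls were 2, 2 and 2 among 15 E2F6 polycomb partners. They were 2, 2 and 2 among 12 E2F1 apoptosis targets and 2, 0 and 1 among 17 corepressors. Among 18 turnover genes they were 2, 1 and 2, and among 12 dimer partners and MuvB genes 2, 1 and 1. The same tests called 12.3%, 9.91% and 9.4% of all genes tested. Of these lists, only the apoptosis targets were called in another alternative, 1 with at least 10 counts in every library and 2 without experiment 2. Among CDK inhibitors 1 was called without experiment 3 and none in the other fits, and no germline target was called in any. The causes of these changes were not tested. In the LRC library of experiment 2, 1 count was worth 0.0478 CPM, so that low levels such as that of *E2f2* were poorly resolved there.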
